A study of Homo sapiens with 6 samples.

Results

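AP-1 and EGR immediate early factors are a group of 10 transcription regulators and response genes: the FOS family (FOS, FOSB, FOSL1 and FOSL2), the JUN family (JUN, JUNB and JUND), the zinc finger factor EGR1, and the immediate early response genes IER2 and IER3. They were taken by symbol from the deposited table of 26364 genes, where each of the 10 had its own line, and all 10 passed the filter on low values that left 15354 genes for testing. The libraries were made from Calu3, an epithelial cell line derived from a human lung adenocarcinoma, transfected with siRNA against BRD8 (labelled siBRD8, 3 libraries) or with a negative control siRNA (labelled siNC, 3 libraries), each at 20 nmol with RNAiMax. Both groups share the line and the transfection, and 1 reagent was used per group, so effects of the BRD8 reagent apart from BRD8 loss cannot be told apart from those of BRD8 loss. Nothing in the labels ties the 3 libraries of a group to separate cultures, and p-values here measure the spread among libraries, which could be technical only. In bulk RNA, fewer cells of a type and less RNA per cell cannot be told apart.

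AP-1 is a dimer in which a JUN protein pairs through its leucine zipper with a FOS protein, another JUN protein or a member of the ATF and MAF families, and binds DNA at the letters TGACTCA or close variants. FOS, EGR1 and several JUN genes are immediate early genes: growth factors, stress and cytokines switch them on within minutes, through MAP kinases that act on ELK factors and SRF at promoter elements called CArG boxes, and their transcripts are short-lived. In airway epithelium these factors are known for their part in injury, repair and inflammatory responses. BRD8 encodes a bromodomain subunit of the TIP60 histone acetyltransferase complex.

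The promoter letters of 3 members are shown because their transcripts gave the clearest differences below, EGR1 and FOS upward and FOSB downward. RefSeq promoters (build GRCh38.p14, another build than the hg19 of the expression data) were at hand for 8 members, without FOSL1 and IER3. Each line gives the 250 bases before the annotated start, 5′ to 3′ on the gene's strand, with CArG boxes, TGACG and TATAAA in capitals, on either strand (TGACG then reads CGTCA).
EGR1, chr5:138465229-138465478, plus strand: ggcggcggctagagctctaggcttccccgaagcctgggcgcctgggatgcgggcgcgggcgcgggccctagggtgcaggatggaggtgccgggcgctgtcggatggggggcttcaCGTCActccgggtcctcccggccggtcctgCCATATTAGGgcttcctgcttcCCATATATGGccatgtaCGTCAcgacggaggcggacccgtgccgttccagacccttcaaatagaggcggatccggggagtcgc
FOS, chr14:75278578-75278827, plus strand: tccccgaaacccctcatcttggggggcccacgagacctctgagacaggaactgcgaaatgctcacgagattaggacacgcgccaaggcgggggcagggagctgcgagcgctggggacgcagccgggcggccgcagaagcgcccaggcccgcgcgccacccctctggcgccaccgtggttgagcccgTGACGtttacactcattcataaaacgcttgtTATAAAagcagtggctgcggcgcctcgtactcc
FOSB, chr19:45467746-45467995, plus strand: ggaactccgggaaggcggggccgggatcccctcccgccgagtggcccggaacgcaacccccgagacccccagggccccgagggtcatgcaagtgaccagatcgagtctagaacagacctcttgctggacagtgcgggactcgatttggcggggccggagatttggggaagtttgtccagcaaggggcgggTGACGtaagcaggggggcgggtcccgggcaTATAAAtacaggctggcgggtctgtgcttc
EGR1 alone of the 8 had CArG boxes in this window, a pair of them, CCATATTAGG at bases -105 to -96 and CCATATATGG at -83 to -74 counted from the start, against 1.16% of 35116 promoters with at least 1. The letters TGACG, the core of the cyclic AMP response element, stood in all 8 windows and in 21.2% of all promoters. In FOS they lay at -64 to -60 and in FOSB at -60 to -56, and both genes had TATAAA near -30, at -33 to -28 in FOS and -30 to -25 in FOSB. JUNB had TATAAA too, at -31 to -26, and this motif was found in 10.7% of promoters on either strand. JUND alone held the full element TGACGTCA, which contains TGACG on both strands, against 1.65% of promoters. None of the 8 windows held the AP-1 letters TGACTCA on either strand (4.2% of promoters). A match describes letters and is not evidence of binding. Letters farther than 250 bases before the start were not searched, so an element such as a CArG box may lie beyond this window.

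The libraries held between 33640814 and 37896467 assigned reads. BRD8 had 1312, 1084 and 1156 normalized counts in siBRD8 libraries 1 to 3, against 2751, 2928 and 3067 in siNC libraries 1 to 3 (log2 fold change -1.30, SE 0.0904, limma adjusted p = 1.13e-04). BRD8 shares exon sequence with KIF20A, which is read from the other strand. Epithelial markers were abundant in every library, with a summed level of 8 genes between 633326 and 698270 normalized counts in siBRD8 libraries and between 484998 and 595544 in siNC libraries, and 4 of the 8 rose (CDH1, KRT8, MUC1 and ELF3). COL1A2, a fibroblast marker, was listed at 0 in all 6 libraries, and PTPRC, a pan-leukocyte marker, did not exceed 5.40. Other markers of these lists were present. The fibroblast marker COL1A1 averaged 162 normalized counts in siBRD8 libraries and 189 in siNC libraries. LYZ, listed with the leukocyte markers, was abundant, at 17011 in siBRD8 libraries and 17527 in siNC libraries, and CD14 averaged 35.8 and 28.1. Of 2 tested fibroblast markers LUM rose, while the summed level of all 6 was 212 to 228 in siBRD8 libraries and 213 to 226 in siNC libraries, and no tested ciliated cell or leukocyte marker was called. The summed level of 5 airway basal cell markers was 866 to 1026 normalized counts in siBRD8 libraries and 402 to 581 in siNC libraries, and 2 of the 5, KRT14 and TP63, rose. Most of this sum was KRT14, with means of 756 in siBRD8 libraries and 303 in siNC libraries, while TP63 was low, at 27.2 and 13.1. KRT5, NGFR and DLK2 were not called, at log2 fold changes of -0.06, -0.37 and -0.15. The part of these marker differences in the results below was not tested.

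EGR1 and FOS, the archetypal immediate early factors, were about doubled after BRD8 siRNA, IER2 was modestly higher, and FOSB was lower. Of the 10 members 3 rose (EGR1, FOS and IER2) and 1 fell (FOSB), at an adjusted p under 0.05 by limma over all 15354 genes. Over all genes tested 10.1% rose and 8.93% fell. The median log2 fold change of the 10 members was 0.28, against -0.01 over all genes tested, and 8 of the 10 were above 0. The groups did not overlap for 4 members that were higher (EGR1, FOS, IER2 and FOSL2) and 1 that was lower (FOSB), where 18.9% of all genes stood apart upward and 17.9% downward.

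**Figure D1:**
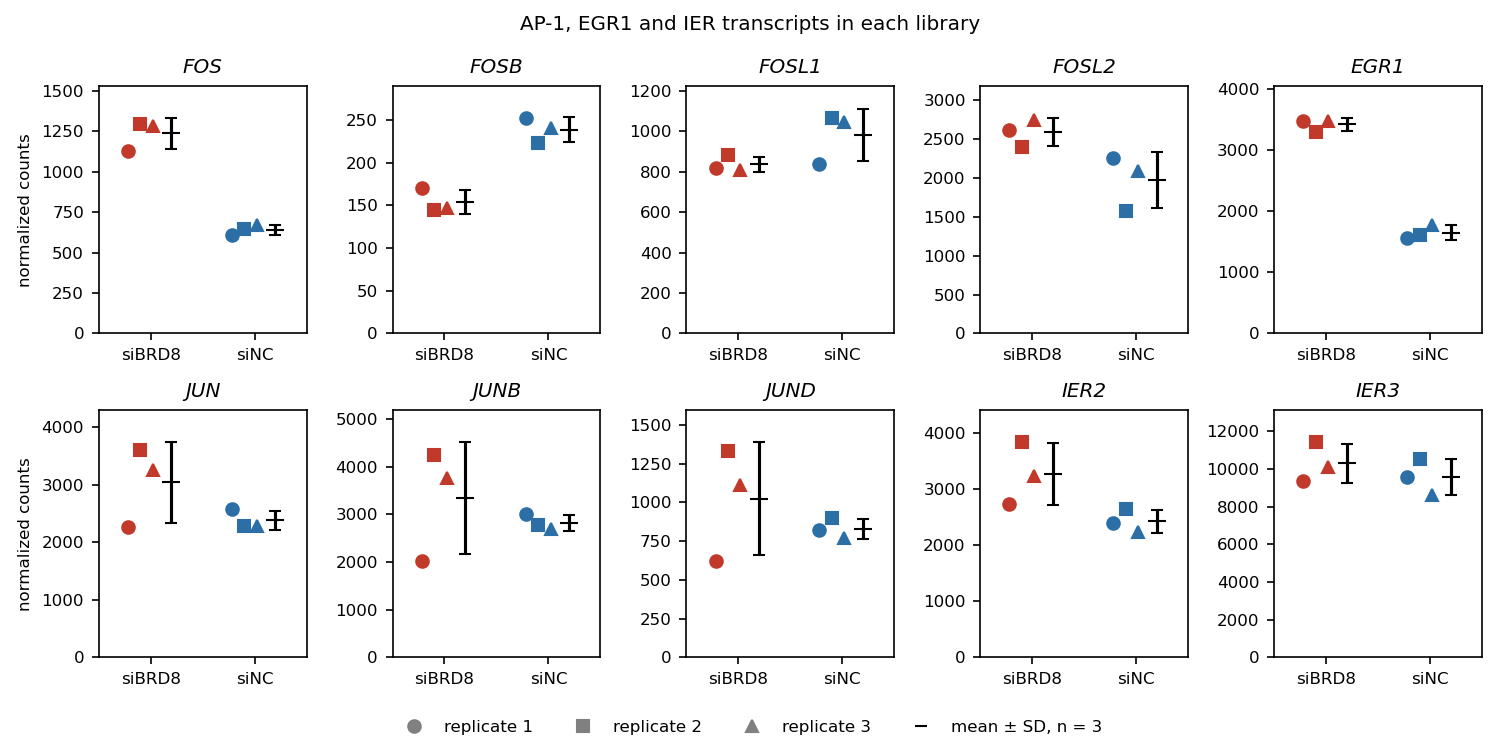
Normalized counts (y axis, from 0) of the 10 members in each siBRD8 library (red) and siNC library (blue), with the replicate number as the symbol and mean ± SD (n = 3) beside the points. EGR1 and FOS are higher and FOSB lower in every siBRD8 library than in any siNC library, and siBRD8 library 1 is the lowest of the 3 siBRD8 libraries for JUN, JUNB, JUND and IER2.

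EGR1, a zinc finger factor that growth factors and stress induce, had 3479.6, 3301 and 3473 normalized counts in siBRD8 libraries 1 to 3, against 1553, 1609 and 1781 in siNC libraries 1 to 3. Every siBRD8 library lay far above every siNC library, and the libraries of each group were close together. The means were 3418 ± 101 in siBRD8 libraries and 1648 ± 118 in siNC libraries (SD, n = 3 each). The ratio of means was 2.07, and the log2 fold change, on the log2(normalized count + 1) scale as all others here, was 1.05 (SE 0.0773, 95% interval 0.88 to 1.23, limma adjusted p = 1.34e-04). Leaving out any 1 library kept it between 1.01 and 1.11.

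FOS, the founding partner of JUN in AP-1, had 1128, 1295 and 1285 normalized counts in siBRD8 libraries 1 to 3, against 610.4, 642 and 669 in siNC libraries 1 to 3. The groups did not overlap, and the lowest siBRD8 library was library 1. FOS averaged 1236 ± 93.7 in siBRD8 libraries and 640.5 ± 29.2 in siNC libraries (SD, n = 3 each), a ratio of 1.93 (log2 fold change 0.95, SE 0.0871, limma adjusted p = 3.88e-04). Its call held with each library left out in turn, at log2 fold changes of 0.91 to 1.01.

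FOSB, which gives the full-length and the truncated delta FosB proteins, went the other way. Its normalized counts were 170.5, 144 and 147 in siBRD8 libraries 1 to 3 and 252, 223 and 241 in siNC libraries 1 to 3. No siBRD8 library reached the lowest siNC library, and siBRD8 library 1 was again the nearest to the siNC libraries. The means were 154 ± 14.5 in siBRD8 libraries and 239 ± 14.4 in siNC libraries (SD, n = 3 each), with siNC 1.55 times siBRD8 (log2 fold change -0.63, SE 0.116, limma adjusted p = 0.00675). FOSB stayed past the threshold without any 1 library, at adjusted p-values between 0.00208 and 0.0371. The ratio of FOS to FOSB counts was 6.62, 8.99 and 8.74 in siBRD8 libraries 1 to 3 and 2.42, 2.87 and 2.78 in siNC libraries 1 to 3.

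FOSL2 (Fra-2), a FOS protein without the strong activation domain of FOS, had 2615, 2391 and 2749 normalized counts in siBRD8 libraries 1 to 3, against 2259, 1569.8 and 2089 in siNC libraries 1 to 3. All 3 siBRD8 values exceeded all 3 siNC values, but siNC library 2 was low and widened the spread. The log2 fold change of 0.40 (SE 0.131, 95% interval 0.11 to 0.70) missed the threshold at a limma adjusted p of 0.0623. It was 0.0329 without siNC library 2 (log2 fold change 0.25) and 0.0385 without siNC library 1 (0.51). The authors' deposited table gives FOSL2 a log2 fold change of 0.39 with an adjusted p of 0.0290. FOSL2 was called higher under 7 of 17 alternatives to the main test and not under the other 10. Among the 7 were DESeq2 (adjusted p = 0.0285) and a correction for the length and GC content of transcripts (limma adjusted p = 0.00571).

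FOSL1 (Fra-1), the FOS protein tied to sustained ERK signalling, had 818, 881 and 810.1 normalized counts in siBRD8 libraries 1 to 3 and 836, 1065 and 1048 in siNC libraries 1 to 3. The groups overlapped, because siNC library 1 sat within the siBRD8 range. The log2 fold change was -0.22 (95% interval -0.47 to 0.02, limma adjusted p = 0.181). It was -0.34 without siNC library 1, at an adjusted p of 0.0488, and -0.35 after a correction of each library for the length and GC content of transcripts, at 0.0085.

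The 3 JUN genes shared 1 feature, a low value in siBRD8 library 1. JUN, the main transactivating subunit, had 2258, 3599.7 and 3258 normalized counts in siBRD8 libraries 1 to 3, against 2575, 2280.2 and 2277 in siNC libraries 1 to 3. JUNB, a weaker activator that can oppose JUN, had 2013, 4243 and 3764 in siBRD8 libraries 1 to 3 and 3008, 2771 and 2694 in siNC libraries 1 to 3. JUND, the most steadily expressed JUN gene, had 624, 1333 and 1115 in siBRD8 libraries 1 to 3 and 821, 899 and 768 in siNC libraries 1 to 3. For each of the 3 genes siBRD8 library 1 was below all siNC libraries, while siBRD8 libraries 2 and 3 were above all of them.

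With all libraries the groups of the JUN genes overlapped and none passed the limma test. The log2 fold changes were 0.33 for JUN (95% interval -0.03 to 0.68, adjusted p = 0.182), 0.17 for JUNB (-0.36 to 0.71, adjusted p = 0.654) and 0.24 for JUND (-0.30 to 0.78, adjusted p = 0.535). Without siBRD8 library 1 they were 0.53, 0.50 and 0.56, at limma adjusted p-values of 0.0157, 0.0171 and 0.0234, so that 6 members rather than 3 rose. Without siBRD8 library 2 the value of JUNB was -0.036. The calls for the 3 JUN genes therefore depended on siBRD8 library 1.

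Library 1 of siBRD8 was also lower than the other siBRD8 libraries in the most GC-rich of 10 equal GC classes of genes. On the log2 scale its value minus the mean of siBRD8 libraries 2 and 3 was -0.60 for JUN, -0.99 for JUNB, -0.97 for JUND and -0.36 for IER2, and of the genes tested 3.43%, 1.03%, 1.09% and 7.61% lay lower. The transcripts of JUNB and JUND are 64.9% and 69.7% GC, in the highest of 10 equal GC classes, whose median for this difference was -0.24 (0.01 over all genes with a GC value). JUN, at 56.7% GC, belonged to a class with a median of 0.08. The classes below the highest had medians of -0.034 to 0.078. Over 14837 genes the Spearman correlation of GC content with this difference was -0.0171. Within their own GC class 2.36% of genes lay lower than JUN, 6.20% lower than JUNB and 6.54% lower than JUND. IER5L, chosen after its values were seen, is 65.0% GC, and 2.43% of genes in its GC class lay lower. It had 627, 1902 and 1562 normalized counts in siBRD8 libraries 1 to 3, against 1142, 1072 and 954 in siNC libraries. After the length and GC correction the log2 fold changes of JUN, JUNB and JUND were 0.27, 0.047 and 0.12, and none of them was called. The part of base composition in these values was not tested. FOS, FOSB, EGR1 and IER2 kept their calls under that setting, at 0.87, -0.69, 0.99 and 0.33. FOSL2 and FOSL1 gained calls, at 0.43 and -0.35.

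**Figure D2:**
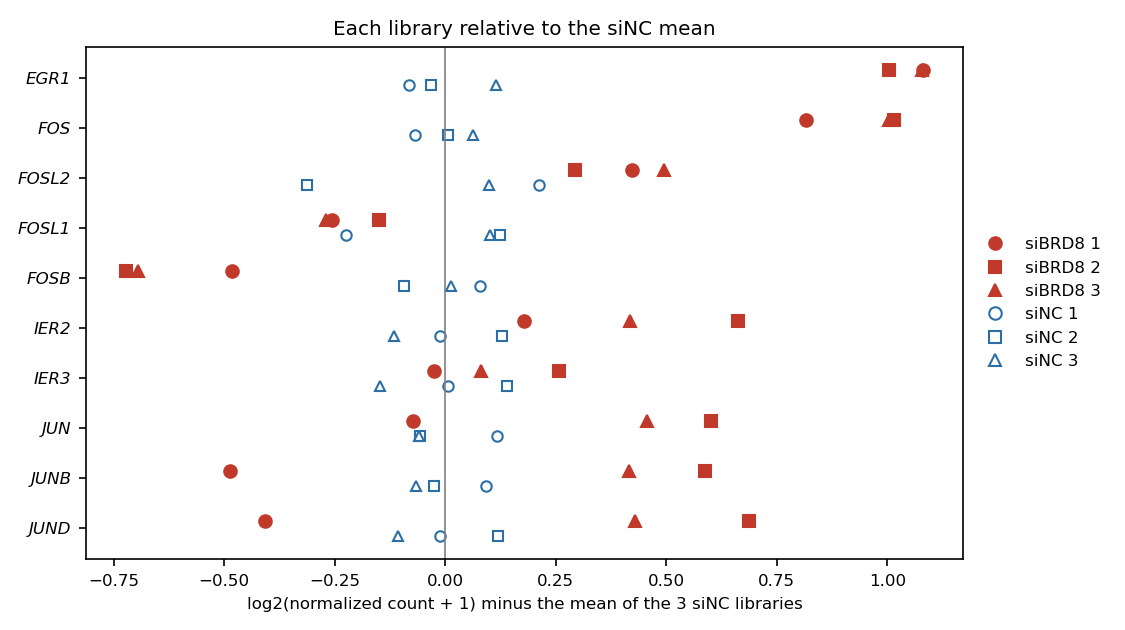
Each library's log2(normalized count + 1) minus the mean of the 3 siNC libraries (x axis) for the 10 members (rows), with siBRD8 libraries filled in red and siNC libraries open in blue. The 3 siBRD8 libraries lie together for EGR1, from 1.00 to 1.08, while for JUNB library 1 is at -0.49 and libraries 2 and 3 are at 0.59 and 0.42.

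IER2, a short-lived nuclear protein of the immediate early response, had 2741, 3834 and 3235 normalized counts in siBRD8 libraries 1 to 3, against 2404, 2646 and 2235 in siNC libraries 1 to 3. The groups were apart by a small margin, between siBRD8 library 1 and siNC library 2. IER2 rose by 0.42 on the log2 scale (SE 0.123, 1.35-fold, limma adjusted p = 0.0446). This call ended without siBRD8 library 2 (adjusted p = 0.140), siBRD8 library 3 (0.119), siNC library 1 (0.102) or siNC library 3 (0.168). Exons of IER2 overlap those of the antisense gene AC011446.2, and strand is not kept by the library kit.

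IER3, a stress-inducible regulator of cell survival, was the most abundant of the 10 genes per length. It had 9377, 11409.8 and 10090.4 normalized counts in siBRD8 libraries 1 to 3 and 9581, 10511 and 8616 in siNC libraries 1 to 3, with overlapping groups. The log2 fold change was 0.11 (95% interval -0.12 to 0.33, limma adjusted p = 0.511). IER3 has an antisense neighbour with overlapping exons, IER3-AS1, and JUNB overlaps HOOK2 on the other strand, so reads in those stretches cannot be assigned with certainty.

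FOS took a larger share of the FOS family in siBRD8 libraries, and FOSL1 and FOSB smaller shares. Counts per kilobase of the longest principal transcript in GENCODE v29 allow levels of different genes to be set side by side. FOS made up 36.1%, 39.4% and 38.9% of the summed FOS family level per kilobase in siBRD8 libraries 1 to 3, against 23.8%, 24.2% and 23.6% in siNC libraries 1 to 3. FOSL1 held 33.9%, 34.7% and 31.7% in siBRD8 libraries and 42.2%, 51.9% and 47.8% in siNC libraries. FOSB held 2.51% to 3.12% in siBRD8 libraries and 4.82% to 5.63% in siNC libraries, and FOSL2 23.4% to 26.9% in siBRD8 libraries and 19.0% to 28.4% in siNC libraries. The FOS family sum was 1448 to 1529 normalized counts per kilobase in siBRD8 libraries and 1187 to 1313 in siNC libraries. Shares of FOS, FOSL1 and FOSB did not overlap between the groups. Shares within a family add up to a fixed whole, so a larger FOS share lowers the others. The counts of FOSL1 itself overlapped between the groups and were not called. These shares are a description built from the same counts as above, and no test was run on them.

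Shares within the JUN family overlapped between the groups. JUN made up 30.7%, 25.0% and 25.7% of the summed JUN family level per kilobase in siBRD8 libraries 1 to 3, against 25.8%, 24.3% and 25.4% in siNC libraries 1 to 3, so that its share was highest in siBRD8 library 1. JUNB made up 53.2% to 57.7% of this sum in siBRD8 libraries and 57.5% to 58.6% in siNC libraries, and JUND 16.1% to 17.6% in siBRD8 libraries and 15.6% to 18.2% in siNC libraries. The JUN family sum was 2079, 4064 and 3587 normalized counts per kilobase in siBRD8 libraries 1 to 3, against 2821, 2649.6 and 2536 in siNC libraries 1 to 3. In siBRD8 library 1 all 3 JUN genes were low together, JUN less so than JUNB and JUND.

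**Figure D3:**
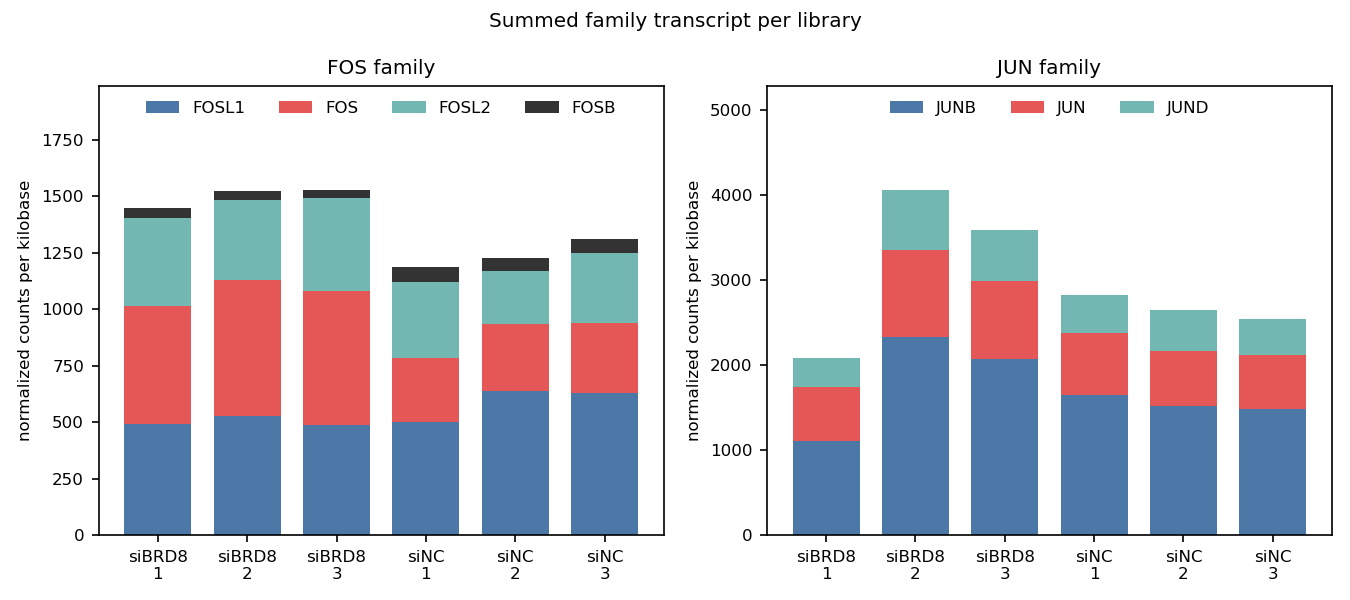
Stacked normalized counts per kilobase of transcript (y axis, from 0) for the FOS family (left) and the JUN family (right) in each library. The FOS segment is larger in each siBRD8 library (523 to 600.3 per kilobase) than in each siNC library (283 to 310), and the JUN family sum is lowest in siBRD8 library 1.

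Per kilobase, the order in siBRD8 libraries ran from IER3 (8274 ± 829) through JUNB (1835 ± 645), IER2 (1115 ± 186), EGR1 (1089 ± 32.3), JUN (858 ± 197), FOS (573 ± 43.4), JUND (549.6 ± 195), FOSL1 (501 ± 23.2) and FOSL2 (385 ± 27.0) to FOSB (40.8 ± 3.84) normalized counts per kilobase (SD, n = 3). JUNB and IER2, IER2 and EGR1, FOS and JUND, and JUND and FOSL1 overlapped in their libraries, so these neighbours were not apart beyond their spread. In siNC libraries the order was IER3 (7693 ± 762), JUNB (1552 ± 89.9), IER2 (828 ± 70.5), JUN (672 ± 48.3), FOSL1 (589 ± 76.3), EGR1 (525 ± 37.7), JUND (445 ± 35.4), FOS (297 ± 13.5), FOSL2 (294 ± 53.5) and FOSB (63.3 ± 3.82). Here FOSL1 and EGR1 overlapped, as did FOS and FOSL2. EGR1 was thus above JUN and FOS above FOSL1 in every siBRD8 library, and the reverse held in every siNC library. The level of IER2 depends on its transcript, since its principal transcripts range from 1291 to 2934 bases.

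Many immediate early genes outside the 10 members were higher after BRD8 siRNA. Of 27 tested genes of the EGR family, the NAB corepressors and other immediate early genes, 15 rose and none fell, with a median log2 fold change of 0.34, against 10.1% and 8.93% of all genes. By limma 1 was lower at an unadjusted p under 0.05, and edgeR and DESeq2 also called 15 higher and 0 lower. SGK1, a serum-induced kinase, had 355, 352 and 358 normalized counts in siBRD8 libraries 1 to 3, against 142, 145 and 148 in siNC libraries 1 to 3 (log2 fold change 1.28, SE 0.0942, limma adjusted p = 1.34e-04). The pseudokinase scaffold TRIB1 rose by 0.68, the small GTPase gene RHOB by 0.89 and DUSP1, a phosphatase that switches off MAP kinases, by 0.76. These counts stayed at 13 to 16 higher and 0 lower with any 1 library left out. After the length and GC correction 17 rose and 4 fell, where 2356 of all 14837 genes in that fit rose and 2833 fell.

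EGR2 and EGR3, close relatives of EGR1, and the corepressor gene NAB2 also rose. They were picked after their values were seen. EGR2 had 135, 101 and 140.2 normalized counts in siBRD8 libraries 1 to 3 and 50.2, 36.7 and 49.8 in siNC libraries 1 to 3, a rise of 1.44 on the log2 scale (limma adjusted p = 0.00175). EGR3, whose exons overlap an antisense gene, had 116, 114 and 137 in siBRD8 libraries 1 to 3 and 60.7, 38.9 and 58.9 in siNC libraries 1 to 3 (log2 fold change 1.22, limma adjusted p = 0.00397). NAB2, a corepressor that EGR1 induces and that binds EGR proteins, averaged 1297 ± 73.1 normalized counts in siBRD8 libraries and 924 ± 19.5 in siNC libraries (SD, n = 3 each; log2 fold change 0.49, limma adjusted p = 0.00360), although it overlaps STAT6 on the opposite strand. EGR4 was below the filter on low values and was not tested, with 1.04, 12.3 and 17.4 normalized counts in siBRD8 libraries 1 to 3 and 3.79, 3.24 and 7.11 in siNC libraries 1 to 3, which overlapped. MYC and ATF3, both classic early response genes, were not called, at log2 fold changes of -0.07 (adjusted p = 0.503) and 0.09 (adjusted p = 0.527). After the length and GC correction MYC was called lower, at -0.20 (limma adjusted p = 0.0332), and ATF3 was not called.

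Among 12 tested partners and relatives of AP-1, 4 rose and 1 fell, with a median of 0.09, where 10.1% of all genes tested rose and 8.93% fell at a median of -0.01. The same shares and median over all genes apply to the lists that follow, in the main limma fit only (1549 rises and 1371 falls). After the length and GC correction 2356 of 14837 genes rose and 2833 fell. Without siNC library 2, 2445 of 15354 genes rose and 2784 fell. With any other library left out 832 to 1142 rose and 528 to 838 fell. BATF2, a basic leucine zipper factor known to hold AP-1 in check, had 137, 122 and 131 normalized counts in siBRD8 libraries 1 to 3, against 36.0, 47.5 and 38.6 in siNC libraries 1 to 3 (log2 fold change 1.66, SE 0.158, limma adjusted p = 4.21e-04). The small MAF gene MAFF rose by 0.49 and MAF by 1.19, at the low levels of 39.8 ± 6.61 normalized counts in siBRD8 libraries and 16.8 ± 2.38 in siNC libraries (SD, n = 3 each). ATF2, which pairs with JUN, fell to 1655 ± 33.5 in siBRD8 libraries, against 2313 ± 272 in siNC libraries (log2 fold change -0.48, limma adjusted p = 0.0097). Its call ended without siNC library 3 (adjusted p = 0.0528), and without siNC library 2 the list had 2 falls.

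Among genes that feed into or report ERK signalling, calls went in both directions. Of 17 ERK feedback and output genes 3 rose and 2 fell, with a median of -0.08. The groups did not overlap for 3 that were higher and 2 that were lower, where 18.9% of all genes tested stood apart upward and 17.9% downward. SPRED3, a brake on RAS, fell to 101 ± 3.17 normalized counts in siBRD8 libraries, against 199.9 ± 14.6 in siNC libraries (log2 fold change -0.98), and the ETS factor ETV5 fell by 0.79, at limma adjusted p-values of 0.00103 and 0.00123. The ephrin receptor genes EPHA4 and EPHA2 rose by 0.80 and 0.23. DUSP6, the ERK-specific phosphatase gene often read as a gauge of ERK activity and picked here after its values were seen, averaged 2411 ± 43.5 in siBRD8 libraries and 2404 ± 20.2 in siNC libraries (log2 fold change 0.0038, limma adjusted p = 0.975). Only 1 of these genes rose when siBRD8 library 1, 2 or 3 or siNC library 1 or 3 was left out.

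Of 28 genes of the MAP kinase cascades and SRF cofactors, 2 rose and 3 fell, with a median of -0.10. The groups did not overlap for 2 that were higher and 9 that were lower, against 18.9% and 17.9% of all genes tested. This list thus leaned downward by that count, though few of its genes were called. The kinase genes MAP2K6 and RPS6KA3 fell by 0.85 and 0.71 and NRAS by 0.41, while MAP2K3 rose by 0.40 (limma adjusted p = 6.19e-04, 0.00579, 0.0148 and 0.0187). SRF, the factor that binds CArG boxes, was the other gene that rose, by 0.29 (adjusted p = 0.0294), and was called in 1 of the 6 fits that left out a library. The rises numbered 0 without siBRD8 library 1 or 2 or siNC library 1 or 3 and 1 without siBRD8 library 3, and the falls 2 without siBRD8 library 1 or 2 or siNC library 1 or 3, 7 without siNC library 2 and 8 after the length and GC correction. The fall of NRAS was the call lost in those 4 fits, at limma adjusted p-values of 0.0523 without siBRD8 library 1, 0.0643 without siBRD8 library 2, 0.0524 without siNC library 1 and 0.0778 without siNC library 3.

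Textbook AP-1 target genes did not follow one direction. Of 21 tested, 5 rose and 2 fell, with a median of 0.06. CXCL8, a neutrophil chemokine, rose by 0.86 and HMOX1, heme oxygenase, by 0.71, whereas PLAU, urokinase, fell by 0.52 and HMGA2, a chromatin protein, by 0.36 (limma adjusted p = 1.34e-04, 0.00603, 0.00525 and 0.0176). PLAU had 3939, 3781 and 3609.7 normalized counts in siBRD8 libraries 1 to 3, against 4878, 6049 and 5409 in siNC libraries 1 to 3, although it overlaps C10orf55 on the opposite strand. Without any 1 library other than siNC library 2, 2 of these genes rose, and 1 fell without siBRD8 library 1 or 2 or siNC library 1 or 3. After the length and GC correction 6 fell. Handling stress can induce heat shock genes together with immediate early genes, and its part in these values was not tested. Of 11 heat shock genes 1 rose and 1 fell, with a median of 0.15, and 8 were above 0. The groups did not overlap for 3 that were higher and 2 that were lower, against 18.9% and 17.9% of all genes tested. HSPB1 rose by 0.74. The chaperonin gene HSPD1, whose exons overlap those of HSPE1 on the opposite strand, fell by 0.28. The rise of HSPB1 was not called without siBRD8 library 2 or 3 or siNC library 1 or 3. The fall of HSPD1 was not called without siBRD8 library 1, 2 or 3 or siNC library 3, nor with no filter on low values (limma adjusted p = 0.0654). In the other direction, 3 heat shock genes rose without siNC library 2 and 2 after the length and GC correction.

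**Figure D4:**
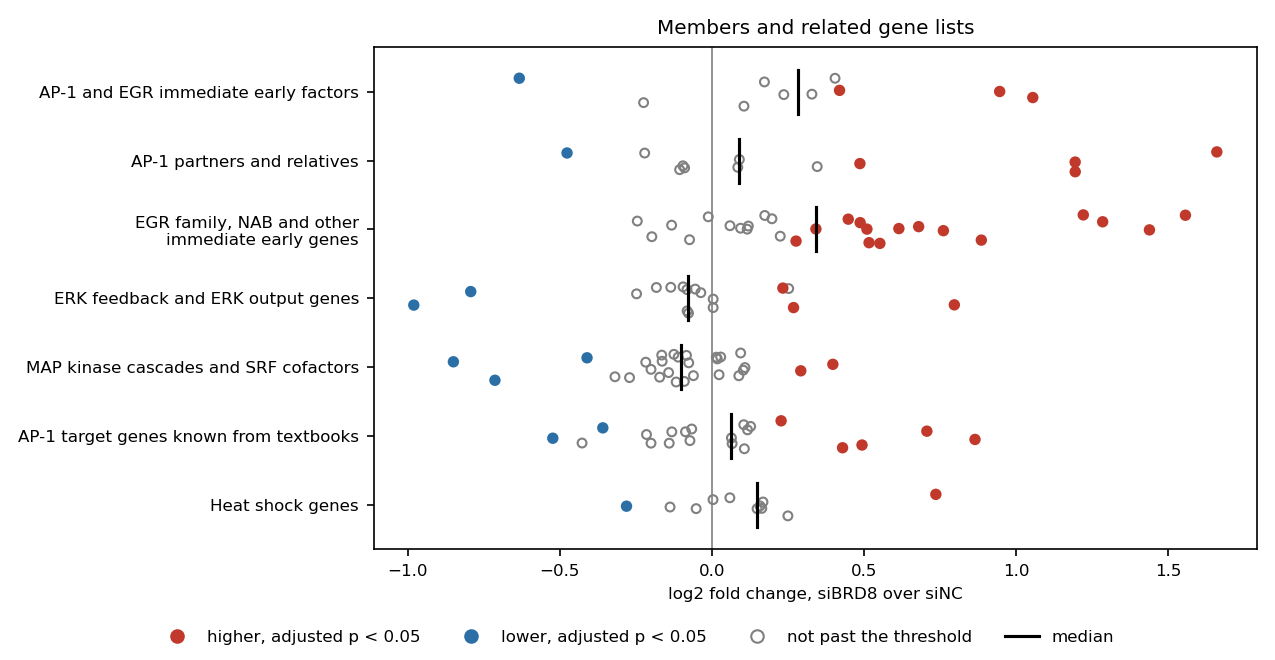
Log2 fold change of siBRD8 over siNC (x axis) for each tested gene of the 10 members (top row) and of 6 related lists, with genes that rose in red, genes that fell in blue, others open, and the median as a bar. The medians of the members (0.28) and of the other immediate early genes (0.34) lie above 0, and those of ERK feedback genes (-0.08) and MAP kinase cascades (-0.10) below.

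The genes most like EGR1 over the 6 libraries, out of 13080 others whose mean reached 50 normalized counts, were SP140L, SERPINB2 and KYNU. Their Pearson r with EGR1 was 0.9997, 0.9997 and 0.9991 on the log2 scale, and 73 genes exceeded 0.99, so many genes are nearly as close and no p is given. SERPINB2 had 4577, 4463 and 4572 normalized counts in siBRD8 libraries 1 to 3, against 3299, 3347 and 3520 in siNC libraries 1 to 3. The closest to FOSB were HPSE, GINS3 and TMEM185B, at r of 0.9985, 0.9982 and 0.9975, with 26 genes over 0.99. HPSE itself was not called (limma adjusted p = 0.0839). GINS3 averaged 326 ± 18.7 normalized counts in siBRD8 libraries and 415 ± 12.1 in siNC libraries (SD, n = 3 each).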

How the data were processed

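RNA-seq libraries of 6 Calu3 samples were used, 3 per group, with groups and replicate numbers from the sample titles; the shared extraction text of the labels speaks of HBE cells instead. Per the submitters' processing notes, STAR 2.6, featureCounts 1.6.3 and DESeq2 1.22.1 were used with build hg19. Annotation, strand setting and filters were not stated. Each deposited expression value is a signal: the count of a gene, divided by the authors by a library size factor. The authors' deposited table also gives a log2 fold change, its log2 standard error, a test score of opposite sign and p-values, raw and adjusted.

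Whole reads were recovered (100% of values whole within 0.01 reads). A floor of 3 reads corresponds to 2.84 to 3.24 normalized counts and covers counting error only. The main test was limma 3.58.1 under R 4.3.3, run with trended variance on log2(normalized count + 1) in the 15354 genes whose mean reached 10, with Benjamini-Hochberg adjustment over all of them and a threshold of 0.05. Fold changes on this scale understate those of low genes. edgeR 4.0.16 and DESeq2 1.42.0 on the recovered reads, other normalizations, pseudocounts, filters, a length and GC trend, a replicate block and leaving out each library were alternatives. The model was also run on simulated counts, drawn independently for each gene and library without a length or GC trend. That run cannot show how such a trend affects the calls, and no result here rests on it.

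Named by rule are the 10 members, BRD8 and, in each list, up to 4 called genes with the smallest adjusted p. The 3 genes most correlated with the leading member in each direction are named too. Other genes are outside this rule, and not all of them are marked where they appear. These include MYC, ATF3, EGR4, SRF, MAFK and the cell type markers. Members and lists were chosen with earlier results of these data known. GENCODE v29, on another build, gave lengths, GC content and exon overlaps; 23747 symbols matched directly and 747 through synonyms, and 1868 did not.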

Additional observations from a re-analysis of the deposited data

How the results depend on the processing

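EGR1, FOS and FOSB kept their direction and their call under all 17 alternatives. Of 170 values recomputed for the 10 members, 150 kept direction and side of the threshold, 4 lost the call (IER2, each with a library left out), 13 gained one and 3 changed sign. The 3 were IER3 at -0.016 after the length and GC correction, with and without the replicate block, and JUNB at -0.036 without siBRD8 library 2. With a library left out JUNB ranged from -0.036 to 0.50, DUSP6 from -0.0084 to 0.018, IER5L from -0.090 to 0.71 and MAFK from -0.23 to 0.12. Members higher ranged from 2 to 6 and members lower from 1 to 2 with a library left out, and 2 were lower after the length and GC correction, with and without the replicate block. Over all lists 30 genes rose and 9 fell, with ranges of 19 to 34 and 5 to 16 with a library left out, and 23 fell after the length and GC correction, with and without the replicate block. The causes were not tested. Of all genes tested, 1549 rose and 1371 fell, against 2356 and 2833 after that correction and 2445 and 2784 without siNC library 2; with other single libraries left out 832 to 1142 rose and 528 to 838 fell. Whether replicate numbers pair the samples could not be settled with 3 libraries per group. Correlations of deviations were -0.0845, 0.335 and 0.155 for numbers 1 to 3, and not every sample correlated best with its own number. With the replicate block 4 members rose and 1 fell, FOSL2 joining at an adjusted p of 0.0136, and 1939 genes rose and 1962 fell. The JUN genes spread widely over siBRD8 libraries, and the part of depth in their values was not tested.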
